A study of Arabidopsis thaliana with 8 samples.

Results

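The comparison described here set flowers of clf-28 plants against flowers of wild-type plants (wt), both of Arabidopsis thaliana in the Col-0 background. clf-28 is a mutant allele of CURLY LEAF (CLF). Each genotype gave 1 flower library, from plants 5 weeks old grown in soil under long days at 22 °C. The series also holds 1 library per genotype of siliques from plants of the same age, and of roots and of the aerial part (labelled leaves) from plants 2 weeks old grown on MS plates. The labels do not give the number of plants in a library, the flower stages taken or the hour of harvest. Transcript levels were deposited as FPKM, a fragment count corrected for how long the transcript is and how many fragments were mapped. A locus entered when both flower libraries had a usable quantification status and at least 1 of them reached 1 FPKM, which kept 20926 of the 34759 loci in the table. Of these, 18456 carried 1 gene name and a locus of their own, and single genes are named from these unless stated. At the 1 FPKM limit, AT1G06100 lay just inside with 1.001 FPKM in clf-28 and 0.497 in wt, and AT5G10890 just outside with 0.999 in clf-28 and 0.992 in wt. Each difference is the log2 ratio of clf-28 over wt after adding 1 FPKM to both values.

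Polycomb repressive complexes silence developmental genes by trimethylating lysine 27 of histone H3, and CLF is one of the methyltransferases that place this mark. In Arabidopsis flowers, the organ identity genes of the MADS-box family are expressed in whorls and are among the best known Polycomb targets outside the flower. A flower also holds anthers, whose inner tapetum layer feeds the developing pollen and deposits the pollen coat. Many plant transcripts follow the circadian clock, in which CCA1 and LHY peak around dawn and repress genes of the evening. Iron supply is sensed in the shoot as well as in roots, and a small group of bHLH factors (bHLH38, bHLH39, BHLH100 and BHLH101) is induced when iron is short.

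The material carried the genes of a flower in both genotypes. PISTILLATA (PI), which specifies petals and stamens, was at 178 FPKM in clf-28 flowers and 238 FPKM in wt flowers, against at most 6.01 FPKM in the 6 libraries of the other organs. LAP5, an enzyme of pollen wall synthesis in the tapetum, was at 21.1 FPKM in clf-28 flowers and 40.1 in wt flowers, and at 0.16 FPKM or less in the other organs. CLF itself was at 14.7 FPKM in clf-28 flowers and 9.99 FPKM in wt flowers (log2 ratio 0.52), with overlapping deposited intervals. The gene-level value therefore did not separate the genotypes. The libraries summed to 699143 FPKM in clf-28 and 695868 FPKM in wt. The number of loci at 1 FPKM or more was 20662 in clf-28 and 20711 in wt. With 1 library per genotype there is no replicate error and no test between the genotypes in flowers, so genes are described by the size of their ratio and by the deposited intervals. These were wide, with a lower bound of 0 for 89.6% of the measured loci in clf-28 and 89.9% in wt, and a median upper bound of 2.37 times the FPKM in both.

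A log2 ratio of at least 1, or 2-fold, was reached by 532 of the 20926 loci (2.54%). Of these, 315 (1.51%) were higher in clf-28 and 217 (1.04%) were lower. The same size was reached by 6.77% of measured loci in roots, 6.88% in leaves and 19.4% in siliques. The median absolute log2 ratio was 0.171 in flowers, 0.231 in roots, 0.243 in leaves and 0.389 in siliques, so the flower libraries lay closest together of the 4 pairs. Across the measured loci, log2 levels in the flower libraries correlated with a Pearson r of 0.973, over loci that share their libraries. Among genes with a locus of their own, 241 were higher and 183 were lower by the rule of size. At that limit, GDH2 stood just inside with 109 FPKM in clf-28 and 53.8 in wt (a ratio of 1.0), and AT1G14890 just outside with 70.0 in clf-28 and 34.5 in wt. LTP12 stood just inside on the lower side, with 155 FPKM in clf-28 and 310 in wt (-1.002).

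**Figure D1:**
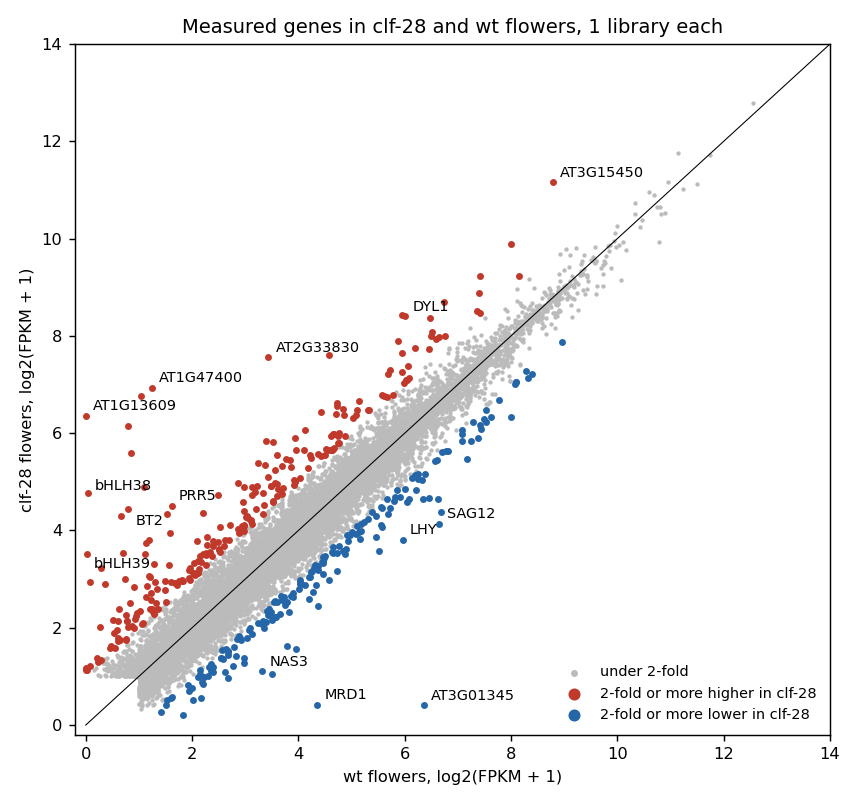
Level of each measured gene with a locus of its own in clf-28 flowers (vertical axis) against wt flowers (horizontal axis), as log2(FPKM + 1). Red points are the 241 genes 2-fold or more higher in clf-28, blue points the 183 genes 2-fold or more lower, and grey points the rest. The genes farthest above the line, such as AT1G13609 and bHLH38, were at or near 0 in wt flowers.

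The deposited intervals of the libraries did not overlap for 4 loci. On the higher side they were 3 loci (0.0143% of those measured): BT2, DYL1 and a locus that merges AT4G13493, AT4G13494 and AT4G13495. On the lower side LHY was the only one (0.00478%). BT2, which encodes a BTB and TAZ domain protein, was at 20.8 FPKM (interval 3.27 to 38.3) in clf-28 and 0.74 FPKM (0 to 2.55) in wt. DYL1, a dormancy-associated gene, was at 337 FPKM (170 to 505) in clf-28 and 63.5 FPKM (15.2 to 112) in wt. The merged locus was at 303 FPKM (96.2 to 509) in clf-28 and 35.2 FPKM (0.93 to 69.4) in wt, and its reads cannot be split among its genes. LHY was at 13.0 FPKM (3.53 to 22.5) in clf-28 and 61.2 FPKM (24.8 to 97.6) in wt. For all other genes named here, the intervals overlapped.

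The promoters shown next belong to genes at the centre of the groups of genes that follow: a pair of iron-response bHLH factors, a pair of genes with large ratios that hold an evening element, the clock gene PRR5 and the clock gene LHY. Each is the 250 bases before the RefSeq gene start, on the strand of the gene, in the TAIR10.1 assembly. Capitals mark the G-box CACGTG or the evening element AAAATATCT, searched on both strands, so the element also appears as AGATATTTT.
bHLH38 (AT3G56970, chr3:21085246-21085495, minus strand): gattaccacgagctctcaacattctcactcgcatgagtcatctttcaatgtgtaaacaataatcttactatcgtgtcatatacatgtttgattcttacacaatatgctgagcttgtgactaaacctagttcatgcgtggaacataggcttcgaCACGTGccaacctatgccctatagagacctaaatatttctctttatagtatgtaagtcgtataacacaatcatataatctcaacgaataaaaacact
BHLH100 (AT2G41240, chr2:17199455-17199704, minus strand): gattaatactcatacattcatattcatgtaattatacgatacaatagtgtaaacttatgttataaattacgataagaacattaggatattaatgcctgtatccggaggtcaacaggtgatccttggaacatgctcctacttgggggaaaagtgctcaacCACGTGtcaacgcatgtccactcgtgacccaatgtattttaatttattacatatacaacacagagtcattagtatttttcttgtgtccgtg
AT2G15960 (chr2:6946846-6947095, plus strand): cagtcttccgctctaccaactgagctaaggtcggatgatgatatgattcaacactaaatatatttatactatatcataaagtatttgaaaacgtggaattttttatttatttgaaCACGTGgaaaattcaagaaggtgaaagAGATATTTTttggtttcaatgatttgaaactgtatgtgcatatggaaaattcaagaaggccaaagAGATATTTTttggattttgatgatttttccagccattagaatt
PORB (AT4G27440, chr4:13725296-13725545, plus strand): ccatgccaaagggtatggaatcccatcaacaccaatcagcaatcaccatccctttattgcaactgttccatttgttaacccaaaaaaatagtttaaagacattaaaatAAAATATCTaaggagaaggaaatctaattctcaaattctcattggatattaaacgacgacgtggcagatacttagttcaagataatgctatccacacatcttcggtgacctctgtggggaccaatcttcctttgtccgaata
PRR5 (AT5G24470, chr5:8358547-8358796, minus strand): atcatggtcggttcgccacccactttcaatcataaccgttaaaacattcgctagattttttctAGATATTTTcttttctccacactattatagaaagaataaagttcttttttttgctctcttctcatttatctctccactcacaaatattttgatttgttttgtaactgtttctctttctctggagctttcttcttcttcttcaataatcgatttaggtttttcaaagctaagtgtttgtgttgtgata
LHY (AT1G01060, chr1:37872-38121, minus strand): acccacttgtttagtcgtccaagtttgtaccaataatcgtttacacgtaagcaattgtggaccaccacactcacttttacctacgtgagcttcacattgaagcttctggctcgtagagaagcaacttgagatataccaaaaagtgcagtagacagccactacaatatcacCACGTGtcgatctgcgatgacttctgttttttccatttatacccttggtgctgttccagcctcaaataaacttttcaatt
bHLH38, BHLH100 and LHY held 1 G-box each, at 97, 91 and 80 bases before the gene start. PRR5 and PORB held 1 evening element each. AT2G15960 held 2 evening elements and 1 G-box, in a window that overlaps the neighbouring gene AT2G15950. The window of PORB overlaps its neighbour AT4G27435.

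The largest ratios of the comparison belonged to a set of small genes that RefSeq leaves without a symbol and to the iron-response bHLH factors. AT1G13609, a defensin-like protein gene, was at 81.2 FPKM in clf-28 flowers and listed at 0 in wt flowers. AT2G30766 was at 107 FPKM in clf-28 and 1.07 in wt (log2 ratio 5.71), AT1G47400 at 121 in clf-28 and 1.37 in wt (5.69), and AT2G14247 at 69.4 in clf-28 and 0.74 in wt (5.34). AT5G05250 was at 47.1 FPKM in clf-28 and 0.81 in wt (4.73). These 5 genes were therefore close to absent from the wt flower library. They were not silent elsewhere in wt: in wt leaves AT1G13609 was at 100.8 FPKM, AT2G30766 at 68.9, AT1G47400 at 34.6, AT2G14247 at 85.9 and AT5G05250 at 38.7. AT1G47395, next to AT1G47400, is split over a pair of loci in the table and is not among the named genes; its larger locus was at 290 FPKM in clf-28 and 3.02 in wt.

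The 4 bHLH factors of iron deficiency were all 2-fold or more higher in clf-28. bHLH38 was at 26.2 FPKM in clf-28 flowers and 0.024 FPKM in wt flowers (4.73). BHLH100 was at 18.7 FPKM in clf-28 and 0.58 in wt (3.64), bHLH39 at 10.5 in clf-28 and 0.013 in wt (3.50), and BHLH101 at 6.62 in clf-28 and 0.055 in wt (2.85). In the wt library all 4 were below 1 FPKM, so the sizes of their ratios depend on the 1 FPKM added. Of 12 iron deficiency regulators in the list, 9 were measured, and these 4 were the members past 2-fold, against 1.51% of all measured loci. The other 5, bHLH factors known as activators of these 4 genes, lay between -0.38 (bHLH34) and 0.61 (bHLH121). The median of the 9 was 0.61, the value of bHLH121, against 0.01 over all measured loci. With no filter on low values it was 0.37. The list does not hold the 5 genes without a symbol given above, whose ratios with 1 FPKM added were larger than any in it. That order depends on the 1 FPKM. With 0.1 FPKM added, bHLH38 had 7.73, below AT1G13609 (9.67). It was then above AT2G30766 (6.53), AT1G47400 (6.37), AT2G14247 (6.37) and AT5G05250 (5.69).

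Iron transport and storage genes differed in both directions. FRO3, a ferric reductase of the mitochondrion, was at 46.0 FPKM in clf-28 and 11.1 in wt (1.96). OPT3, which loads iron into the phloem, was at 81.9 FPKM in clf-28 and 27.98 in wt (1.52). NAS4, a nicotianamine synthase, was at 1.44 FPKM in clf-28 and 0.18 in wt (1.05). A relative of it went the other way: NAS3 was at 1.15 FPKM in clf-28 and 9.02 in wt (-2.22). Of 14 measured uptake and transport genes of 17, these 3 were higher and NAS3 was lower, with a median of -0.14. The shares over all measured loci were 1.51% higher and 1.04% lower. All 5 measured storage genes of 8 lay below 0, with a median of -0.99. That median was -0.63 when 5 FPKM was added to each value and -0.62 with no filter on low values. Among them FER1, a plastid ferritin that stores iron, was at 80.0 FPKM in clf-28 and 196 in wt (-1.28) and was the 1 member past 2-fold. FER4 was at 29.5 FPKM in clf-28 and 59.9 in wt (-0.9979, just short of the limit), and FER3 at 51.1 in clf-28 and 75.1 in wt. NEET, an iron-sulfur protein of the chloroplast and mitochondrion, was at 19.7 FPKM in clf-28 and 101.4 in wt (-2.31). IRT1, the iron transporter of the root epidermis, differed little, at 14.8 FPKM in clf-28 and 16.5 in wt.

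**Figure D2:**
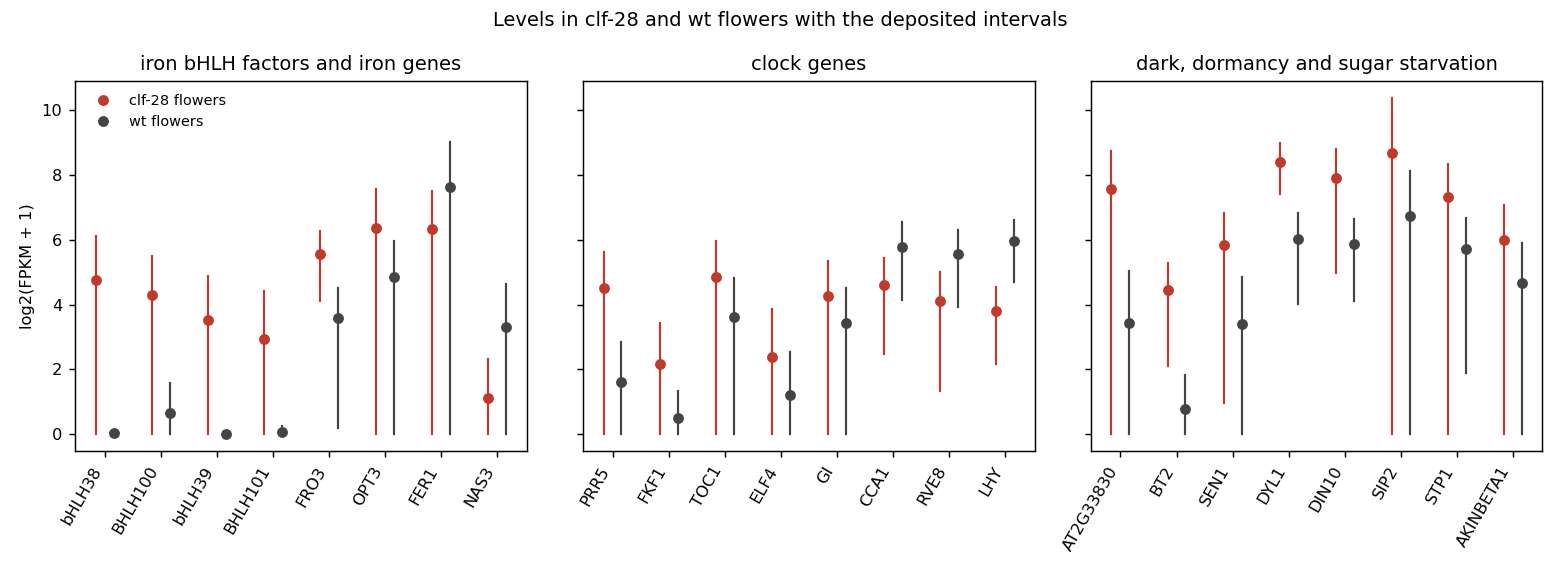
Levels of selected iron, clock and dark-response genes in clf-28 flowers (red, left of each pair) and wt flowers (grey, right), as log2(FPKM + 1). Points are the deposited FPKM, 1 library each, and lines run from the deposited lower to the upper bound. The 4 bHLH factors sat near 0 in wt flowers, and BT2, DYL1 and LHY are the genes whose lines do not overlap.

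The iron lists, the clock lists, the dark and starvation list and the sulfate list were put together after the largest ratios had been seen, so their counts describe these libraries and support nothing further. Wt leaves held the iron-response transcripts, so the lists for green tissue are given beside them, and their part in the result was not tested. Over the 19 measured photosynthesis genes of 23, FPKM summed to 28077 in clf-28 flowers and 26396 in wt flowers, with a median log2 ratio of -0.06. Past 2-fold were 0 members, against 2.54% of all measured loci. The 8 measured green tissue markers of 9 summed to 2230 FPKM in clf-28 flowers and 2686 FPKM in wt flowers, with a median of -0.33. Of these, 7 lay below 0, and PORB was 2-fold or more higher, against 1.51% of all measured loci. Root markers were sparse, with 5 of 13 measured, sums of 38.8 FPKM in clf-28 and 42.5 FPKM in wt over the 12 with a usable status, and 0 members past 2-fold.

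All 11 clock genes of the afternoon and evening had log2 ratios above 0, with a median of 1.1, and 6 of the 11 were 2-fold or more higher, against 1.51% of all measured loci. The median was 0.56 when 5 FPKM in place of 1 FPKM was added to each value. PRR5, a repressor in the clock, was at 21.8 FPKM in clf-28 and 2.06 in wt (2.90). FKF1, a blue-light receptor that times flowering, was at 3.47 FPKM in clf-28 and 0.42 in wt (1.65). TOC1, the evening repressor of CCA1 and LHY, was at 27.7 FPKM in clf-28 and 11.2 in wt (1.23), and ELF4 of the evening complex at 4.23 in clf-28 and 1.31 in wt (1.18). PRR3 (1.27) and ELF3 (1.1) were the other members past 2-fold. GI was at 18.1 FPKM in clf-28 and 9.71 in wt, short of the limit. The lowest ratios of the list belonged to ZTL (0.19) and BOA (0.10). In siliques 10 of the 11 lay above 0 and 4 were 2-fold or more higher, against 7.90% of measured genes. In leaves 11 lay above 0 and 4 were past that size, against 4.26%. In roots 4 lay above 0 and 1 was past it, against 3.49%.

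Morning clock genes showed the opposite sign at their core. LHY had the ratio -2.15 in flowers, and -1.57 in siliques, -1.02 in leaves and -0.61 in roots. Its close relative CCA1 was at 23.3 FPKM in clf-28 and 54.3 in wt (-1.19), and RVE8, an activator of evening genes, at 16.3 in clf-28 and 46.0 in wt (-1.44). AT3G54500 (LNK2), a coactivator of RVE8, was at 77.6 FPKM in clf-28 and 179 in wt (-1.20). These 4 of the 11 measured morning genes were 2-fold or more lower, against 1.04% of all measured loci. None was higher by that size, and the median was -0.13. EPR1, RVE1 and PRR7 had positive ratios of 0.96, 0.82 and 0.65. Without an hour of harvest in the labels, genotype and time of day cannot be told apart for the clock genes, nor for the iron, dark-response and sulfate genes that stand beside them.

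The evening element was found in 24 of 233 promoters of the genes higher in clf-28 (10.3%), against 4 of 168 promoters of lower genes (2.38%), 466 of 17891 promoters of measured genes (2.60%) and 648 of all 27443 protein-coding genes (2.36%). Of the 11 evening clock genes, 5 held it. It was in 1 of 12 promoters of morning clock genes and 1 of 23 of tapetum and pollen wall genes. For iron deficiency regulators it was in 0 of 12, and for the dark, dormancy and sugar starvation genes in 0 of 18. The 24 genes included AT2G15960 (a stress-induced protein, 193 FPKM in clf-28 and 22.7 in wt, 3.03), PRR5, FKF1, TOC1, the cold-regulated gene COR27, the MADS-box gene MAF5, and PORB and PORA, enzymes of chlorophyll synthesis. PORB was at 345 FPKM in clf-28 and 60.8 in wt (2.49), and PORA at 19.4 in clf-28 and 3.63 in wt (2.14). The G-box was found in 34 of the 233 promoters of higher genes (14.6%), in 21 of the 168 of lower genes (12.5%) and in 7.45% of those of measured genes. A match of letters is not evidence of binding.

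Of 18 genes of darkness, bud dormancy and sugar starvation, 16 were measured. Of these, 8 were 2-fold or more higher, against 1.51% of all measured loci, and 0 were lower. Log2 ratios were above 0 for 15, with a median of 1.1. AT2G33830 (DRM2), a dormancy-associated gene, was at 188 FPKM in clf-28 and 9.79 in wt (4.13). SEN1 (AT4G35770), a senescence-associated gene induced in the dark, was at 56.3 FPKM in clf-28 and 9.55 in wt (2.44). DIN10 and SIP2, enzymes of raffinose-family sugars, were at 238 FPKM in clf-28 and 57.7 in wt (2.02), and at 412 in clf-28 and 106 in wt (1.95). STP1, a sugar transporter, was at 157 FPKM in clf-28 and 52.0 in wt (1.58), and AKINBETA1, a subunit of the SnRK1 kinase, at 62.3 in clf-28 and 24.5 in wt (1.31). AT3G15450, an aluminum-induced protein gene outside the list, was the most abundant of the higher genes named, at 2289 FPKM in clf-28 and 441 FPKM in wt (2.37). DIN4 (0.86) and ASN1 (0.85) had ratios short of 2-fold. In siliques 9 of the 16 measured list members were 2-fold or more higher, against 7.90% of measured genes. In leaves 5 were, against 4.26%, and in roots 3, against 3.49%. In each of these organs 0 were lower by that size, against 6.69% of measured genes in siliques, 0.981% in leaves and 0.737% in roots.

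Among genes of sulfate reduction, all 3 APS reductases, the enzymes that commit sulfate to reduction, were past 2-fold: APR3 at 13.6 FPKM in clf-28 and 42.7 in wt (-1.58), APR2 at 15.7 in clf-28 and 46.8 in wt (-1.52), and APR1 at 14.6 in clf-28 and 34.4 in wt (-1.18). LSU2, a sulfur-deficiency gene, was at 1.71 FPKM in clf-28 and 5.36 in wt (-1.23). These 4 of 12 measured members were 2-fold or more lower, against 1.04% of all measured loci, and 0 were higher. The median was -0.31, and 2 members lay above 0. SIR, the sulfite reductase, was at 51.8 FPKM in clf-28 and 64.3 in wt. In siliques 6 of the 12 members were 2-fold or more lower, against 6.69% of measured genes, and 1 was higher, against 7.90%. In leaves 0 were past 2-fold, against 4.26% of measured genes higher and 0.981% lower. In roots 2 were higher, against 3.49%, and 1 was lower, against 0.737%.

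Of 23 tapetum and pollen wall genes, 18 were measured, and 17 of these lay below 0, with a median of -0.73. The 2 members past 2-fold, against 1.04% of all measured loci, were A7 (ANTHER 7), at 62.2 FPKM in clf-28 and 134 in wt (-1.09), and AMS, a master regulator of the tapetum, at 13.9 in clf-28 and 29.3 in wt (-1.02). ABCG26, a transporter for pollen wall precursors, was at 8.82 FPKM in clf-28 and 18.6 in wt (-0.997, just short of the limit). ACOS5, a pollen wall enzyme, was at 35.0 FPKM in clf-28 and 67.7 in wt (-0.93). The 19 members with a usable status summed to 353 FPKM in clf-28 and 629 FPKM in wt. In bulk tissue, fewer cells of a type and less RNA per cell cannot be told apart.

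Pollen coat genes showed the same sign. All 8 measured of 10 lay below 0, with a median of -0.83, and summed to 1242 FPKM in clf-28 and 2299 FPKM in wt. EXL4 (AT1G75910), an extracellular lipase of the pollen coat, was at 139 FPKM in clf-28 and 317 in wt (-1.19). Its neighbours AT1G75920 (-1.19) and EXL6 (AT1G75930, -1.005) were the other members past 2-fold, against 1.04% of all measured loci. GRP19, an oleosin-like coat protein, was at 571 FPKM in clf-28 and 1074 in wt (-0.91). Of 37 mature pollen and pollen tube genes, 31 were measured and 0 were past 2-fold, against 2.54% of all measured loci. By contrast with the coat genes, they had a median of 0.03 (-0.08 over members at 5 FPKM or more), with 16 above 0 and 15 below. The 32 with a usable status summed to 1273 FPKM in clf-28 and 1337 FPKM in wt. The lowest of that list was SHT (-0.93), which is known as a tapetum gene. Meiosis genes lay below 0 in all 7 measured of 14, with a median of -0.21. The largest of them was DMC1, the meiotic recombinase, at 7.57 FPKM in clf-28 and 13.3 in wt (-0.74). Genes of the anther wall and filament had a median of -0.31 over 10 measured of 12. Whether the flower stages in the libraries differed was not tested.

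**Figure D3:**
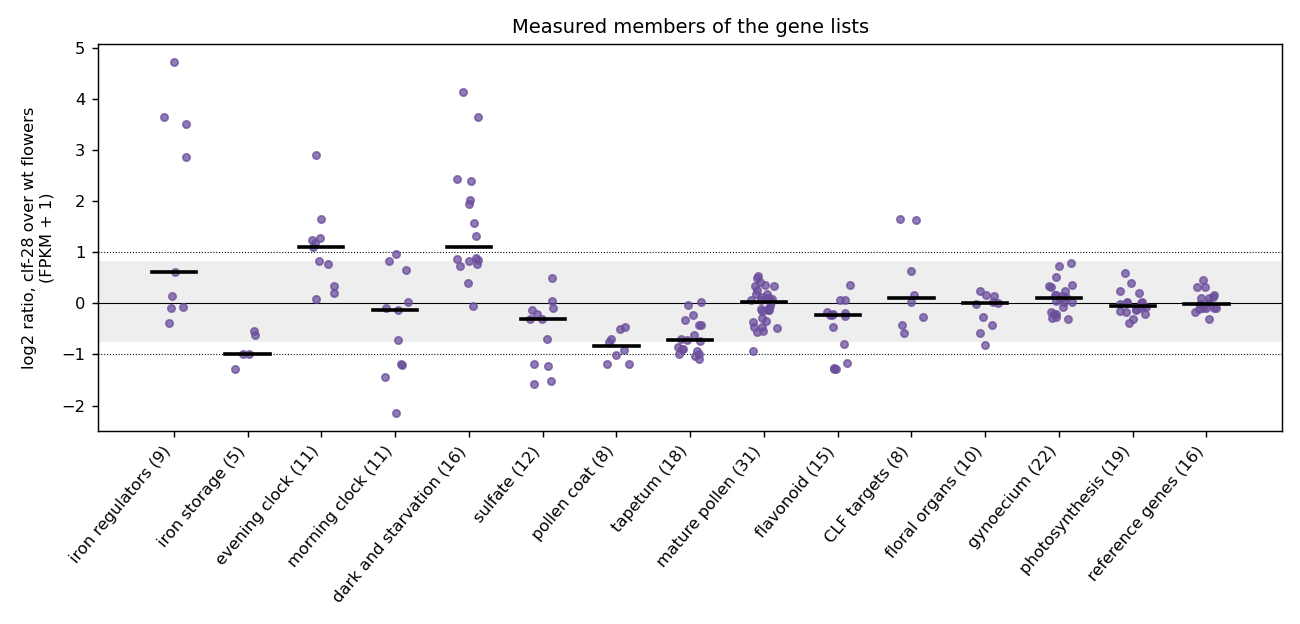
Log2 ratio of clf-28 over wt flowers for each measured member (points) of 15 gene lists, with the number of members in brackets and the median as a bar. The grey band holds the central 95% of measured loci, from -0.74 to 0.81, and dotted lines mark 2-fold. Evening clock genes lay above 0, tapetum, pollen coat and iron storage genes below it, and mature pollen, photosynthesis and reference genes around it.

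Among flavonoid genes, 4 enzymes of the pathway were 2-fold or more lower. TT4, the chalcone synthase that opens the pathway, was at 149 FPKM in clf-28 and 337 in wt (-1.18). F3H was at 32.0 FPKM in clf-28 and 79.2 in wt (-1.28), TT7 at 11.3 in clf-28 and 28.8 in wt (-1.27), and FLS1, the flavonol synthase, at 70.4 in clf-28 and 170 in wt (-1.26). These 4 of 15 measured genes of 20 were lower, against 1.04% of all measured loci, and 0 were higher. The median was -0.23, or -0.46 over members at 5 FPKM or more. The pathway's regulators MYB12 (-0.46) and MYB111 (-0.21) stood nearer to 0. In siliques 7 of the 15 members were 2-fold or more lower, against 6.69% of measured genes, and 1 was higher, against 7.90%. In leaves 0 were past 2-fold, against 4.26% of measured genes higher and 0.981% lower. In roots 0 were either, against 3.49% higher and 0.737% lower.

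Of the 10 textbook targets of CLF, 8 were measured, and 2 of these were 2-fold or more higher, against 1.51% of all measured loci. None was lower by that size, and the median was 0.10. The higher members were MAF5, a relative of the flowering repressor FLC, at 6.69 FPKM in clf-28 and 1.45 in wt (1.65), and FT, the mobile flowering signal, at 23.1 in clf-28 and 6.76 in wt (1.64). FLC followed with a ratio of 0.64. The organ identity genes among the targets lay between -0.58 for AP3, at 78.9 FPKM in clf-28 and 119 in wt, and 0.17 for AG. Over the 10 floral organ identity genes, 0 were past 2-fold, against 2.54% of all measured loci, and the median was 0.00 to 2 decimals. AP1, which specifies sepals and petals, was the farthest from 0, at 43.8 FPKM in clf-28 and 77.3 in wt (-0.81). SEP1 (AT5G15800), SEP2 (AT3G02310) and AP2 had ratios of -0.01, 0.00 and 0.02. Of 22 measured genes of gynoecium and ovule patterning, 0 were past 2-fold either, against the same 2.54%, with a median of 0.10 and a range from -0.30 to 0.78.

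Some of the largest ratios had the same sign in every organ, among them those of AT2G15960, AT1G13609 and LHY. AT4G13575, of unknown function, was at 28.9 FPKM in clf-28 and 1.15 in wt flowers (3.80), and its ratio was 3.90 in siliques, 2.41 in leaves and 4.25 in roots. The adjacent HTA4, which encodes a histone H2A, had a flower ratio of 2.95, and AT4G13572 one of 2.84. HTA4 shares its deposited span with UNE15, which was at 116 FPKM in clf-28 and 147 in wt (-0.33), so their reads may be mixed. AT4G13572 and AT4G13575 share their deposited span too. AT3G01345, also of unknown function, was the lowest of all, at 0.33 FPKM in clf-28 and 81.2 in wt flowers (-5.95), and was 3.08 to 5.74 log2 units lower in clf-28 in the other organs. MRD1 was at 0.34 FPKM in clf-28 and 19.5 in wt flowers (-3.94), with ratios from -2.93 to -2.17 in the other organs. Its deposited span is shared with HEI10, a meiotic recombination gene whose ratio was -1.71.

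The other lowest ratios belonged to genes of varied kinds. SAG12, a cysteine protease gene of senescence, was at 16.6 FPKM in clf-28 and 99.5 in wt (-2.51). NF-YA10, a subunit of a CCAAT-binding factor, was at 1.08 FPKM in clf-28 and 10.4 in wt (-2.45). AT5G03350, a legume lectin gene, was at 1.96 FPKM in clf-28 and 14.4 in wt (-2.38), and AT1G04660, a glycine-rich protein gene, at 2.08 in clf-28 and 12.7 in wt (-2.15). AT5G42530 (-1.98), AT2G25510 (-1.93) and AT1G04770 (-1.92) completed the 12 lowest.

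**Figure D4:**
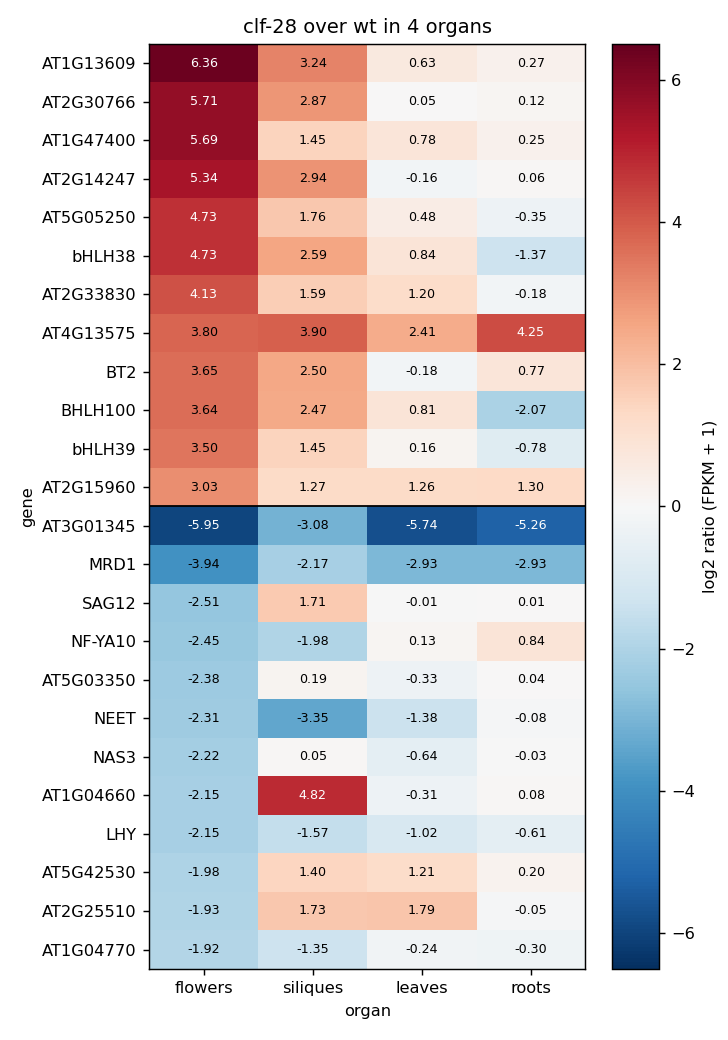
Log2 ratio of clf-28 over wt in flowers, siliques, leaves and roots for the 12 genes with the largest and the 12 with the lowest ratio in flowers, 1 library per genotype and organ. Red is higher and blue lower in clf-28. AT4G13575, AT2G15960, AT3G01345 and MRD1 were past 2-fold with the same sign in all 4 organs. Others, such as LHY and AT1G13609, kept their sign with ratios short of 2-fold in some organs. AT1G04660 was lower in flowers (-2.15) and higher in siliques (4.82).

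Many genes higher in clf-28 flowers were also higher in clf-28 in other organs. Of the 241, 99 (41.1%) were 2-fold or more higher in siliques, against 7.90% of the 18456 measured genes, 71 (29.5%) in leaves against 4.26%, and 40 (16.6%) in roots against 3.49%. Lower by that size were 13 (5.39%) in siliques against 6.69%, 5 (2.07%) in leaves against 0.981%, and 10 (4.15%) in roots against 0.737%. Of the 183 lower genes, 39 (21.3%) were 2-fold or more lower in siliques, against 6.69% of measured genes, and 32 (17.5%) were higher there. In leaves 13 (7.10%) were lower, against 0.981%, and 13 were higher. In roots 6 (3.28%) were lower, against 0.737%, and 19 (10.4%) were higher. Of the lower genes, 49.2% reached 1 FPKM in wt roots, against 83.9% of measured genes. Across genes, the flower ratio correlated weakly with that in leaves (Pearson r 0.219), siliques (0.130) and roots (0.0874), over genes that are not independent.

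Whether a flower ratio differed from the mean ratio of siliques, leaves and roots was tested with limma across 24078 loci. Benjamini-Hochberg adjustment left 0 loci higher (0% of those tested) and 0 lower (0%), with a smallest adjusted p of 0.956. At an unadjusted p under 0.05 there were 461 higher (1.91%) and 666 lower (2.77%). The fit has 2 residual degrees of freedom and assumes that the lone flower ratio varies like those of the other organs. In the upper direction the smallest unadjusted p belonged to WCRKC1, a thioredoxin gene, with 25.6 FPKM in clf-28 and 4.58 in wt flowers. Its ratio was 2.25 in flowers, and 0.22, 0.08 and 0.14 in siliques, leaves and roots. The difference of 2.1 (SE 0.16) had an unadjusted p of 4.5e-04 in limma and an adjusted p of 0.956. OPT3, AT2G15960, ATCTH and AT1G47400 followed with differences of 1.37, 1.76, 1.46 and 4.86. In the lower direction AT5G49280 came first, with 9.06 FPKM in clf-28 and 21.1 in wt flowers (-1.14) and ratios from 0.81 to 0.95 in the other organs. AT1G20823 and ZF2 had flower ratios near 0 (-0.20 and -0.22), with ratios of 1.46 to 2.04 elsewhere. AT5G40800 was low throughout, at no more than 1.86 FPKM in any library. AT5G44265 was listed at 0 FPKM in every library of the other organs, so its ratios there were 0 without spread. AT5G40800 and AT5G44265 completed the 5 smallest p-values in that direction, and the adjusted p was 0.956 for all 10 genes.

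Some of the differing genes lie side by side on a chromosome. Among 14626 measured nuclear genes with a locus of their own, whose deposited span held no other such gene, 199 were higher and 143 were lower. Spans shared with merged or unmeasured loci were kept. Of the 199, 11 (5.53%) had a higher gene as the next one measured, against 2.68% of the 14626, and of the 143 lower genes 12 (8.39%) had a lower one, against 1.93%. Of the 11, 7 belong to a run of related genes on chromosome 4 and to the AT14A pair (AT3G28290 and AT3G28300, with identical ratios of 1.37), whose reads may be shared. Without these, 4 of 192 higher genes (2.08%) had a higher neighbour, against 2.61%. The longest run of higher genes was the one on chromosome 4, from 8925703 to 8937892 on TAIR10, where AT4G15660, AT4G15670, AT4G15680, AT4G15690 and AT4G15700 were all higher. They encode proteins of the thioredoxin superfamily and had ratios from 1.87 to 2.81. AT4G15700 had the highest, at 19.3 FPKM in clf-28 and 1.89 in wt. They are alike in sequence family, so reads may be shared among them. The next gene in the row, AT4G15710, was at 2.41 FPKM in clf-28 and 2.85 in wt. The longest run of lower genes was on chromosome 1, from 28501434 to 28514284, and held EXL4, AT1G75920, EXL6 and ATA27, an anther-specific glucosidase-like gene. The lower genes with a lower neighbour also included the pairs CYP71B27 with CYP71B2 and cPT8 with cPT9. Related genes were not left out on the lower side, where reads may be shared too.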

How the data were processed

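Total RNA, treated with DNase I, went into TruSeq RNA libraries for Illumina HiSeq sequencing, per the labels' protocols. TopHat, Cufflinks and the TAIR10 genome are named in the submitters' processing notes, without versions. The deposited table gives, per the file headers, an FPKM, its confidence bounds and a status flag (unit other, per the file headers) for each of 34759 loci in 8 libraries. Scaling between libraries is not given in the sources used here. The depth of a library is unknown, since the table holds no counts, and the precision is that of the authors' bounds.

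Log2 ratios of clf-28 over wt were computed from the deposited FPKM plus 1. Loci with several gene names (934 of those measured) entered no gene list. Symbols and promoters came from RefSeq (TAIR10.1), and 99.9% of 29417 matched nuclear genes overlapped their deposited locus. The kit does not mark strand, so reads of overlapping genes cannot be told apart: 4643 measured genes shared their deposited span with another row. The flower ratio was tested against the mean of the other 3 organs with limma 3.58.1 (R 4.3.3, intercept and flower term, empirical Bayes with trend) over loci with a usable status in all 8 libraries and 1 FPKM in any, with Benjamini-Hochberg adjustment. The procedure was tested on simulated data. Tables were made with Python 3.11.15 and pandas 2.3.3.

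Named are CLF, the loci whose intervals did not overlap, the 12 largest ratios in each direction, the 5 smallest p in each direction of the limma fit and, from each of 36 gene lists, the textbook targets or up to 4 members with the largest ratios; a few others were named after their values were seen. The genes and lists were chosen with earlier results of these data known, and 7 lists (iron, clock, dark and starvation, sulfate) after the values of the flower comparison were seen.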

Additional observations from a re-analysis of the deposited data

Results flagged for a closer look

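Among the genes with the largest ratios in flowers, 6 passed 2-fold in the opposite direction in another organ. With 1 library per genotype and organ, none of these differences between organs was tested on its own, and the limma fit called 0 loci after adjustment. bHLH38 and BHLH100 had ratios of 4.73 and 3.64 in flowers and -1.37 and -2.07 in roots, where bHLH38 was at 3.89 FPKM in clf-28 and 11.6 in wt, and BHLH100 at 2.85 in clf-28 and 15.2 in wt. SAG12 had -2.51 in flowers and 1.71 in siliques, with 65.1 FPKM in clf-28 siliques and 19.1 in wt siliques. AT1G04660 had -2.15 in flowers and 4.82 in siliques, with 484 FPKM in clf-28 siliques and 16.1 in wt siliques. AT5G42530 had -1.98 in flowers, 1.21 in leaves and 1.40 in siliques. AT2G25510 had -1.93 in flowers, 1.79 in leaves and 1.73 in siliques. Roots and leaves came from younger plants on plates, so organ, age and growth medium cannot be told apart in the contrasts with roots and leaves. Siliques came from plants of the same age as the flowers.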

How the results depend on the processing

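No paired analysis was possible because the flower libraries form a single pair. The limma fit across organs takes its ratios within each organ's pair. Against 315 higher and 217 lower loci, a pseudocount of 0.1 FPKM gave 484 higher and 429 lower, one of 5 FPKM gave 140 and 80, and a size of 3-fold gave 98 and 23. The other alternatives (no filter, a 5 FPKM filter, 3 scalings and merged loci left out) kept both counts within 1.5 times. Dropping the filter could not change the counts, since values under 1 FPKM in both libraries cannot reach 2-fold after 1 FPKM is added. The share of higher loci among those past 2-fold was 59.2%; it was 53.0% with a pseudocount of 0.1 and 81.0% at 3-fold. Of 308 values of 36 single genes under these alternatives, 306 kept their sign and their side of the limit, and 0 reversed. Many of these values could not move: the filters and the omission of merged loci leave a gene's ratio unchanged. Apart from CLF and the textbook targets, the genes were chosen for their large ratios or separate intervals in these same libraries. A reversal among them was therefore unlikely from the start. The size of 3-fold changes the limit only. MAF5 fell short of 2-fold with a pseudocount of 5 FPKM (0.86). STM crossed 0 with upper-quartile scaling. The iron storage median moved by more than 1 SD of its members' ratios, to -0.63 with a pseudocount of 5 FPKM and -0.62 without a filter. The heat shock median of -0.58 was -0.09 without a filter, and the meiosis median of -0.21 lay between -0.33 and -0.10 with the other pseudocounts. With 5 FPKM added, the medians were -0.18 for anther wall, -0.18 for touch, -0.15 for auxin, -0.08 for gibberellin, 0.07 for gynoecium, 0.06 for endosperm and 0.05 for flowering repressor genes, the last 0.27 over members at 5 FPKM or more. Without a filter the medians of the embryo regulators, root markers and iron uptake genes lay between -0.07 and -0.0001. The share of higher genes with a higher neighbour was 2.08% without the related runs, an alternative chosen after seeing the data.

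For the flower difference against other organs, no filter on low values gave 192 higher and 558 lower loci at an adjusted p under 0.05 in limma (34319 loci tested, many with ratios of 0 in every organ), and all other alternatives gave 0. At an unadjusted p under 0.05, against 461 higher and 666 lower, the counts were 1179 and 1896 without a filter, and 379 lower with a 5 FPKM filter. Leaving out siliques gave 950 higher and 1374 lower, leaving out roots 176 and 302, and leaving out leaves 202 and 295. The depth of the libraries is unknown, and the deposited intervals limit what a ratio of a gene with few reads can show.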

Other observations

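Over all measured loci, 1.51% were 2-fold or more higher and 1.04% lower. Cold, drought and ABA genes had 3 of 18 measured members 2-fold or more higher and 0 lower, with a median of 0.24: LTI30, a dehydrin, at 3.82 FPKM in clf-28 and 0.68 in wt (1.52), COR27 (1.32) and COR15B (1.2). Fast touch and wound genes had 3 of 16 lower and a median of -0.30, with the calmodulin-like CML38 (-1.12) and TCH2 (-1.02) beside CCA1, which also stands in the clock list. Heat shock genes had 1 of 7 higher, DREB2A (1.32), and a median of -0.58, which was -0.09 with no filter on low values, -0.35 with a pseudocount of 5 FPKM and -0.38 scaled to the same FPKM sum. Of the floral meristem and flowering promoters, AGL71, at 3.39 FPKM in clf-28 and 0.52 in wt (1.53), was the 1 of 13 past 2-fold, with a median of 0.04. Of the flowering repressors MAF5 was the 1 of 9, with a median of 0.13. Among nectary and scent genes TPS03, a terpene synthase, was the 1 of 10, at 6.81 FPKM in clf-28 and 2.55 in wt (1.14), with a median of 0.05.

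Several lists, beside some described above, had 0 measured members past 2-fold, against 2.54% of all measured loci. Medians were 0.26 over 25 genes of jasmonate synthesis and stamen maturation, 0.05 over 21 Polycomb and related factors, -0.06 over 16 KNOX and meristem genes and -0.13 over 5 embryo and seed maturation regulators. They were 0.12 over 5 endosperm and seed coat genes, -0.09 over 10 defence genes, -0.24 over 18 auxin genes, -0.18 over 11 gibberellin genes and -0.18 over 16 mitotic genes. Over the 16 reference genes the median was -0.01 and the range -0.31 to 0.46. The 5 root markers had a median of -0.15. Of 16 seed storage, oleosin and LEA genes, 3 were measured, and PAP85, a seed storage protein, was at 3.02 FPKM in clf-28 and 0.21 in wt (1.73). In siliques, by contrast, PAP85 had a ratio of 9.02.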
